A study of Mus musculus with 2 samples.

Results

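Platelets and platelet-bearing droplets were defined as barcodes with at least 4 of 7 platelet genes detected (Ppbp, Pf4, Gp9, Nrgn, Itga2b, Clec1b and Alox12, each with at least 1 unique molecular identifier, UMI) among barcodes with at least 500 detected genes and at most 10% mitochondrial UMIs. Members were thus chosen by the counts of these 7 genes. The rule found 805 members among 16123 barcodes past those filters and 18823 barcodes in all, 521 in the control library and 284 in the Dnmt1iECKO library. The study asked how loss of the DNA methyltransferase Dnmt1 in endothelial cells (ECs) changes tumour vessels, and sorted live CD31+CD45- cells from YUMMER1.7 tumours, a highly immunogenic mouse melanoma line, for droplet-based 3′ single-cell RNA sequencing. Each condition was 1 library made from the pooled tumours of 3 mice. All mice were female and 8 to 10 weeks old. The knockout mice were Cdh5CreERT2;Dnmt1fl/fl;ZsGreenlsl/lsl, in which tamoxifen activates Cre in Cdh5+ ECs. The control library is labelled C57BL/6, and the study's methods describe its controls as carrying the Cre and the ZsGreen reporter without the floxed Dnmt1 allele. The study's text states that the sequenced cells came from lung tumours grown after tail vein injection, while the labels place the tumours under the skin, and the libraries held aerocyte and alveolar epithelial transcripts that belong to lung. Because there was 1 library per condition, no difference between conditions could be tested. Intervals are exact 95% intervals (Clopper-Pearson for shares, Poisson for counts and conditional binomial for ratios), and they cover counting error only.

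Platelets are shed by megakaryocytes without a nucleus and carry a small, fixed store of RNA. They hold alpha granules loaded with chemokines, growth factors and adhesion proteins, bind exposed matrix and von Willebrand factor through the GPIb-IX-V complex, and aggregate through the integrin αIIbβ3. They also carry PECAM1 (CD31) and lack CD45, so a CD31+CD45- gate does not remove them, and in a droplet their RNA can appear alone or beside the RNA of another cell.

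The control library held 9301 barcodes and 123830489 UMIs and the Dnmt1iECKO library 9522 barcodes and 141433493 UMIs, with medians of 8904 and 8762 UMIs per barcode. Despite the CD45- gate, Ptprc (the gene of CD45) was detected in 1466 of the control barcodes past the filters (18.3%) and in 4729 of the Dnmt1iECKO barcodes (58.4%). The libraries shared 29 barcode sequences, and no barcode was a member in both. A further 55 control and 56 Dnmt1iECKO barcodes met the gene rule but failed a filter. Doublet scores placed 43 members (8.25%) in the control library and 12 (4.23%) in the Dnmt1iECKO library among the top-scoring barcodes, against 3.20% and 3.25% of all barcodes past the filters.

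The genes of the rule chose the members, so their levels are a description. Ppbp (chromosome 5, 90768518 to 90770063, plus strand, GRCm38) and Pf4 (chromosome 5, 90772435 to 90773383, plus strand) encode the platelet chemokines CXCL7 and CXCL4. Gp9 (chromosome 6, 87778072 to 87779768, plus strand) encodes a subunit of GPIb-IX-V and Itga2b (chromosome 11, 102453297 to 102470122, minus strand) the αIIb chain. Nrgn (chromosome 9, 37544492 to 37552904, minus strand) encodes the calmodulin-binding protein neurogranin, Alox12 (chromosome 11, 70241457 to 70255353, minus strand) the platelet 12-lipoxygenase and Clec1b (chromosome 6, 129397297 to 129409335, plus strand) CLEC-2, the receptor for podoplanin. Clec1b overlaps Clec9a on the same strand, so its counts are less certain.

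Nrgn was the most abundant of the 7 transcripts, with 31.8% of the rule-gene UMIs of control members and 27.9% of those of Dnmt1iECKO members. Pf4 followed with 24.1% and 26.8%, and Ppbp with 16.9% and 17.7%. The remaining 4 genes each held between 5.32% and 9.02%, and the first 5 genes (Nrgn, Pf4, Ppbp, Gp9 and Clec1b) came in the same order in both libraries. All 7 genes were detected in 128 control members (24.6%) and 72 Dnmt1iECKO members (25.4%). Members held 75.2% and 65.0% of all rule-gene UMIs in the barcodes past the filters. Among non-members with a Cdh5 UMI and no Ptprc UMI, Ppbp was detected in 3.48% of control and 3.06% of Dnmt1iECKO barcodes, which gives the background of free platelet RNA and sub-threshold platelets in cells that should lack the transcript.

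Just outside the rule were 183 control and 110 Dnmt1iECKO barcodes with 3 of the 7 genes, and just inside were 153 and 92 barcodes with 4. The median number of rule-gene UMIs was 6 outside and 9 inside in the control library, and 5 outside and 7 inside in the Dnmt1iECKO library. The step at the threshold was therefore gradual. At the other end, barcodes with all 7 genes had medians of 47 and 52 rule-gene UMIs. The richest member, in the Dnmt1iECKO library, had 680 rule-gene UMIs among 12856 and 13 UMIs of Gata1, the erythroid and megakaryocyte transcription factor, with 5 Pecam1 UMIs, no Cdh5 UMI and 3 Malat1 UMIs. The richest control member had 277 rule-gene UMIs among 7557 and no Gata1 UMI.

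Platelet genes that the rule did not use followed it. Treml1, an alpha-granule membrane receptor, was detected in 41.3% of control and 45.1% of Dnmt1iECKO members, against 0.102% and 0.0925% of the 5855 and 6488 barcodes with none of the 7 genes. Gp5, a subunit of GPIb-IX-V, was detected in 31.9% and 29.9% of members against 0.102% and 0.0925%. Tubb1, the platelet β-tubulin, reached 23.0% and 25.0% against 0.0854% and 0.216%. These 3 genes were nearly absent from barcodes without the rule genes, also after every barcode was thinned to 1000 randomly drawn UMIs, where Treml1 was found in 11.8% and 11.6% of members against 0.0175% and 0%. P2ry12, the platelet ADP receptor that macrophages can also express, was found in 39.9% and 37.0% of members against 1.66% and 3.87%. Rgs18, a regulator of G protein signalling in platelets, was found in 43.6% and 41.5% against 1.14% and 3.98%. Itgb3, the β3 integrin chain that other cells express too, had the highest level outside members, 45.3% and 47.5% against 7.75% and 16.2%. The label of platelet RNA thus held on genes the rule had not used. Members were deeper than the other barcodes (medians of 14175 against 10215 UMIs in the control and 12826 against 10540 in the Dnmt1iECKO library), and after thinning Itgb3 was found in 12.3% and 11.6% of members against 1.28% and 2.67%. Gp1ba, the subunit of GPIb-IX-V that binds von Willebrand factor, was found in 14.0% of control and 14.1% of Dnmt1iECKO members.

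**Figure D1:**
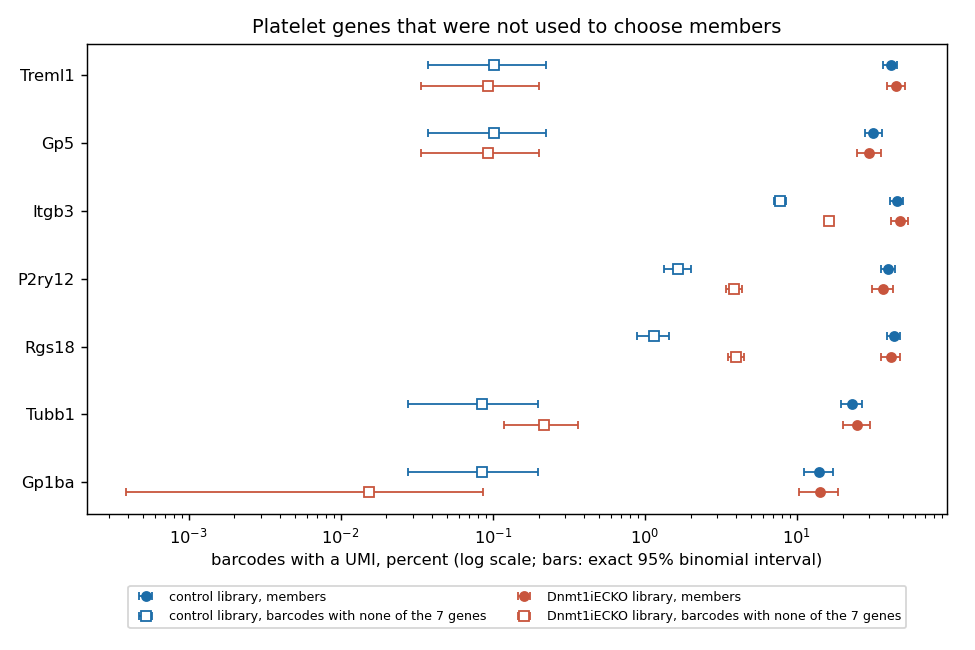
Percent of barcodes with at least 1 UMI of each of 7 platelet genes that were not part of the rule, on a log scale, in members (filled circles) and in barcodes with none of the 7 rule genes (open squares) of the control (blue) and Dnmt1iECKO (red) libraries. Bars are exact 95% binomial intervals. Members sat between 14.0% and 47.5%, and the highest value outside them was 16.2%, for Itgb3 in the Dnmt1iECKO library.

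Most members held endothelial as well as platelet RNA, since Cdh5, the endothelial cadherin that platelets lack, was detected in 86.6% of control and 86.3% of Dnmt1iECKO members. An endothelial UMI (Cdh5 or Pecam1) without a Ptprc UMI was found in 446 control members (85.6%, 82.3 to 88.5) and 221 Dnmt1iECKO members (77.8%, 72.5 to 82.5). Endothelial and Ptprc UMIs together were found in 51 (9.79%, 7.38 to 12.7) and 49 (17.3%, 13.05 to 22.2). Ptprc alone was found in 3 and 2 members, and neither kind in 21 (4.03%) and 12 (4.23%). Any Ptprc UMI was thus seen in 10.4% of control and 18.0% of Dnmt1iECKO members. After each barcode was thinned to 1000 UMIs, an endothelial UMI remained in 79.2% of control and 76.4% of Dnmt1iECKO members, and a Ptprc UMI in 2.70% and 8.45%.

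Platelets carry Pecam1 RNA themselves, so the endothelial group was divided further by Cdh5, a choice made after the values were seen. The 403 control and 201 Dnmt1iECKO members with Cdh5 and no Ptprc were deep barcodes with little platelet RNA. Their medians were 14849 and 12650 UMIs, their rule genes made up 0.115% and 0.124% of UMIs, and Malat1, a nuclear long non-coding RNA, made up 1.49% and 1.41%. Platelet-free barcodes of the same kind, with Cdh5, no Ptprc and none of the 7 genes, had medians of 9448 and 9384 UMIs and Malat1 at 1.86% and 1.76%. The members were the deeper barcodes, with a slightly lower share of nuclear RNA. Detection of at least 4 rule genes is likelier in deep barcodes, and detection of none in shallow ones. The choice of the 2 groups thus favoured this difference in depth.

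The 43 control and 20 Dnmt1iECKO members with Pecam1 but neither Cdh5 nor Ptprc were of another kind. Their medians were 1853 and 2368.5 UMIs, and rule genes made up 2.43% and 2.47% of UMIs. Malat1 made up 0.110% and 0.116% at the median. A Malat1 share under 0.5%, a limit set after the values were seen, was found in 83.7% (69.3 to 93.2) and 85.0% (62.1 to 96.8) of them. Platelet-free barcodes with the same combination of UMIs had such a low share in 39.1% (32.5 to 45.9) and 26.1% (19.4 to 33.9), and these intervals did not overlap in either library. Those platelet-free barcodes were deeper, with medians of 2826 and 11242 UMIs, and the comparison was not matched for depth. Of the members with none of the 3 genes, 12 of 21 and 8 of 12 were Malat1-poor, with medians of 3104 and 1530.5 UMIs.

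**Figure D2:**
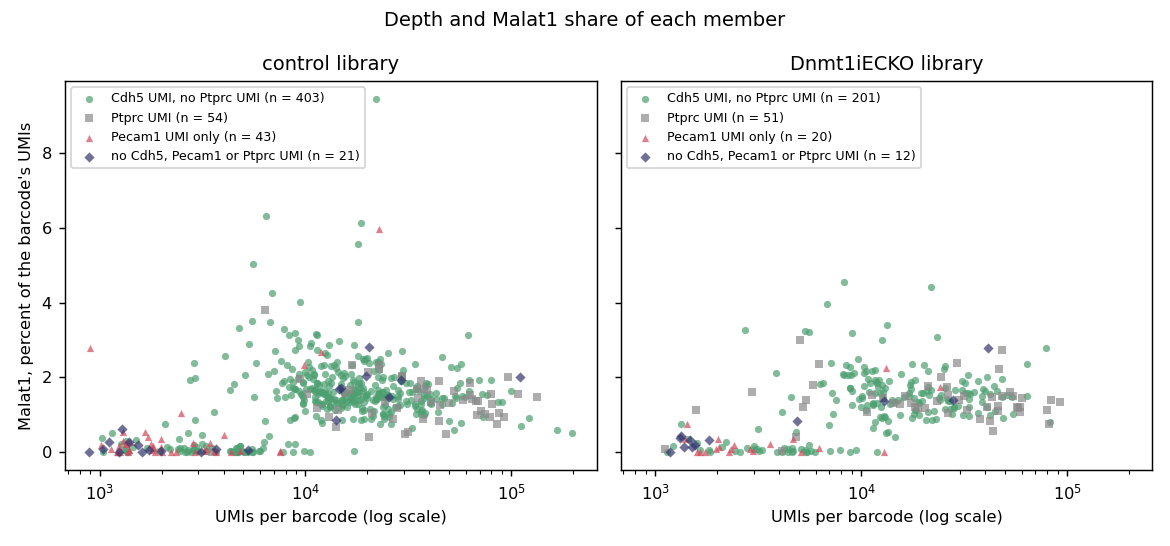
UMIs per barcode (log scale) against the percent of UMIs that were Malat1, for each member of the control (left) and Dnmt1iECKO (right) library. Members with Cdh5 and no Ptprc (green circles) centred on a Malat1 share of 1.49% and 1.41%, while members with Pecam1 only (red triangles) gathered at low depth with medians of 0.110% and 0.116%.

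The 64 control and 32 Dnmt1iECKO members without Cdh5 and Ptprc were compared with barcodes that also lacked both but had none of the rule genes, with each barcode given equal weight. Of 907 genes outside the rule with at least 100 UMIs, the 15 with the highest ratio were Tubb1, Treml1, Gp5, Cd226, F5, P2ry12, Rgs18, Hba-a1, Ctla2b, Fermt3, Ctla2a, Mmrn1, Itgb3, Plek and Hacd4, and 10 of the 15 stood in the platelet lists. The share of list genes among all 907 is not given here. Since the rule genes were required on one side and excluded on the other, other platelet genes were likely to lead. Ctla2a was detected in all 64 and all 32 of these members, with a mean of 12715 and 12652 CPM (UMIs of a gene per 1000000 UMIs), against 16.5% of 996 and 8.73% of 951 platelet-free barcodes and means of 146 and 67.4 CPM. Plek, the platelet protein kinase C substrate pleckstrin, was detected in 87.5% in both libraries, against 4.22% and 7.57%. Hba-a1, an α-globin gene, was found in 70.3% and 46.9%, against 1.00% and 1.68%. Cd226, an adhesion receptor also found on T and NK cells, reached 65.6% and 71.9%, against 0.301% and 0.210%. These 4 genes were thus frequent in members without Cdh5 and Ptprc UMIs, although 3 of them (Ctla2a, Hba-a1 and Cd226) were not in the platelet lists.

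Pooled over UMIs instead, the members with none of Cdh5, Pecam1 and Ptprc gave another picture, because a few deep barcodes carried most of their RNA. The 15 highest genes were led by Lyz1, Myl9 and Gm16685, followed by Sftpc, the surfactant protein of alveolar epithelium, and 1 of the 15 stood in the platelet lists. Sftpc had 19307 UMIs in 12 of the 21 control members and 6 UMIs in 4 of the 12 Dnmt1iECKO members, and 4 control members had at least 1000 each. The epithelial markers were present in 6 and 1 of these members. This small group therefore mixed platelets with platelet-bearing epithelial droplets. The remaining genes of the 15 were Dnah12, Cxcl15, Scd1, Sftpa1, Cbr2, Dcn, Slc34a2, Sftpb, Myh11, Lamp3 and Chil1, and 6 of the 15 had no UMI in the Dnmt1iECKO members.

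The share of barcodes that were members was lower in the Dnmt1iECKO library, at 284 of 8102 (3.51%, 3.12 to 3.93) against 521 of 8021 in the control (6.50%, 5.97 to 7.06), a log2 ratio of -0.89 (-1.10 to -0.68). The libraries also differed in their mixture of cells. Within barcodes with an endothelial and no Ptprc UMI, 221 of 2435 Dnmt1iECKO barcodes (9.08%, 7.96 to 10.3) and 446 of 5654 control barcodes (7.89%, 7.20 to 8.62) were members. The log2 ratio there was 0.20 (-0.037 to 0.44), so the deficit of the whole library was not seen among ECs. Within barcodes with Cdh5 and no Ptprc, the shares were 9.04% and 7.54% and the log2 ratio 0.26 (0.011 to 0.51). Barcodes with endothelial and Ptprc UMIs went the other way, with 49 of 2310 members (2.12%) in the Dnmt1iECKO and 51 of 802 (6.36%) in the control library, a log2 ratio of -1.58 (-2.18 to -0.99). Those members were deep, with medians of 29227 and 37481 UMIs against 11507 and 14139 in the other barcodes of that class. How far mouse to mouse variation and the sort contribute to these shares cannot be told apart from the genotype with 1 pooled library each.

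With the rule applied after thinning to 1000 UMIs, 1.36% of control and 0.777% of Dnmt1iECKO barcodes were members. Among endothelial barcodes without Ptprc the thinned shares were 1.71% and 1.99%, in the same order as at full depth. In barcodes with endothelial and Ptprc UMIs, 0 of 801 control barcodes, which allows a share of up to 0.375% (taken throughout as 3 counts of the total where none was seen), and 4 of 2304 Dnmt1iECKO barcodes (0.174%) remained.

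Host cells were classed by UMIs of at least 3 markers of a list, leaving out Vwf, Selp and Mmrn1, which platelets hold too. A barcode could fall into several classes. Aerocytes, the Car4+ lung capillary ECs specialised for gas exchange, were members in 332 of 2861 control barcodes (11.6%, 10.5 to 12.8) and 167 of 1122 Dnmt1iECKO barcodes (14.9%, 12.9 to 17.1). General capillary ECs were members in 8.07% (7.28 to 8.92) and 9.80% (8.54 to 11.2), and barcodes with arterial markers in 9.40% (8.34 to 10.5) and 11.98% (10.3 to 13.8). All 3 classes had a higher share in the Dnmt1iECKO library, with log2 ratios of 0.36 (0.082 to 0.63), 0.28 (0.021 to 0.53) and 0.35 (0.060 to 0.64). With at least 5 of the 7 genes required, they were 0.22 (-0.13 to 0.55), 0.20 (-0.12 to 0.51) and 0.19 (-0.18 to 0.55), all with intervals that include 0. Barcodes of all 3 classes were deeper in the Dnmt1iECKO library, with medians of 14528, 12754 and 15312 UMIs against 13096, 11548 and 13982. Deep barcodes are likelier to pass the rule. In thinned aerocyte barcodes, at least 2 of the 7 genes were found in 4.53% (control) and 5.99% (Dnmt1iECKO). The shares were 3.10% and 3.35% for general capillary and 2.79% and 3.58% for arterial barcodes. The order was the same, with overlapping intervals in each class. Aerocyte markers were present in 63.7% of all control and 58.8% of all Dnmt1iECKO members, and general capillary markers in 67.8% and 70.1%. Among all barcodes past the filters, aerocyte markers were present in 2861 of 8021 control and 1122 of 8102 Dnmt1iECKO barcodes. General capillary markers were present in 4372 and 2031 of them.

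Exclusive endothelial classes, with Cdh5, no Ptprc and the markers of 1 endothelial class only, were formed after the values were seen. Aerocytes were members in 157 of 1510 control barcodes (10.4%, 8.90 to 12.05) and 58 of 476 Dnmt1iECKO barcodes (12.2%, 9.38 to 15.5). General capillary ECs were members in 171 of 2955 (5.79%, 4.97 to 6.69) and 96 of 1198 (8.01%, 6.54 to 9.70). The log2 ratio of Dnmt1iECKO over control was 0.23 (-0.23 to 0.67) in exclusive aerocytes and 0.47 (0.094 to 0.84) in exclusive general capillary ECs. The log2 ratio of aerocytes over general capillary ECs was 0.85 (0.52 to 1.17) in the control and 0.60 (0.11 to 1.09) in the Dnmt1iECKO library. Aerocyte barcodes had medians of 11260 and 11473 UMIs and general capillary barcodes 9878 and 10126. After thinning, at least 2 of the 7 genes were found in 5.26% and 7.17% of aerocytes and in 2.92% and 3.60% of general capillary ECs, in the same order. At least 4 of the genes were found after thinning in 1.73% and 1.27% of aerocytes and in 0.679% and 1.00% of general capillary ECs. The order of the libraries thus turned for aerocytes, on 26 control and 6 Dnmt1iECKO barcodes.

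Exclusive venous barcodes, of the vessels where leukocytes usually attach, had few members. They numbered 1 of 120 in the control (0.833%, 0.0211 to 4.56) and 1 of 142 in the Dnmt1iECKO library (0.704%, 0.0178 to 3.86), and the medians of 12854 and 12752 UMIs of the venous barcodes were above those of both capillary classes. The log2 ratio of both capillary classes together over vein was 3.14 (0.65 to 8.45) and 3.71 (1.21 to 9.02). The gap was smaller at the level of single transcripts, since at least 1 of the 7 genes was found in 29.7% of capillary and 25.8% of venous barcodes in the control and in 31.8% and 18.3% in the Dnmt1iECKO library. At least 2 of the 7 genes remained after thinning in 3.71% of capillary and 0.833% of venous barcodes of the control (log2 ratio 2.15, -0.34 to 7.47), and in 4.61% and in 0 of 141 in the Dnmt1iECKO library. At full depth, the low member share of venous barcodes was marked only in the exclusive class. When barcodes that also held markers of another endothelial class were counted, venous barcodes were members in 51 of 522 (9.77%, 7.36 to 12.6) and 26 of 389 (6.68%, 4.41 to 9.64), at higher medians of 18615 and 20824 UMIs, and after thinning 1.34% and 0.515% of them had at least 2 of the genes, against 4.53% and 5.99% of the aerocyte class. Exclusive arterial barcodes were members in 7 of 102 (6.86%) and 7 of 79 (8.86%). No member was found among 33 and 15 exclusive lymphatic barcodes, counts that allow shares of up to 9.09% and 20.0%.

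Outside the endothelium, barcodes with erythroid markers had the highest shares of the classes with over 20 barcodes, 12 of 57 in the control (21.1%, 11.4 to 33.9) and 15 of 41 in the Dnmt1iECKO library (36.6%, 22.1 to 53.1). Red cells had been lysed before the sort. Epithelial barcodes were members in 12.03% (9.98 to 14.3) and 6.63% (4.58 to 9.22), fibroblast barcodes in 8.61% and 5.24%, and pericyte or smooth muscle barcodes in 14.1% and 11.2%. In most of these members Cdh5 was found as well, in 98 of 109 and 29 of 32 epithelial members, which therefore held transcripts of at least 3 cell kinds. After thinning, at least 2 of the 7 genes were found in 3.77% and 1.24% of epithelial and 2.03% and 1.53% of fibroblast barcodes. Pericyte or smooth muscle barcodes went the other way, with 1.91% and 2.82%.

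Among leukocytes, monocyte or macrophage barcodes were members in 39 of 667 (5.85%, 4.19 to 7.91) in the control and 40 of 1847 (2.17%, 1.55 to 2.94) in the Dnmt1iECKO library. T cell barcodes were members in 1.93% and 1.16%, B cell barcodes in 5.78% and 0.847%, and neutrophil barcodes in 3.77% and 0.569%. The medians of the B cell members were 56571 and 43227 UMIs, against 8567 and 8415.5 for the class, and Cdh5 was found in all 16 and all 7 of them. After thinning, 0.361% of control B cell barcodes had at least 2 of the 7 genes, as did 0 of 826 in the Dnmt1iECKO library, which allows a share of up to 0.363%. Thinned shares of monocyte or macrophage barcodes were 0.600% and 0.379%. For T cell barcodes the order turned, with 0.242% (1 barcode) and 0.580% (10 barcodes). For neutrophil barcodes it was 0 of 106 in the control, which allows up to 2.83%, and 0.380% (2 barcodes) in the Dnmt1iECKO library. The T cell members were deep too, with medians of 37982 and 45014 UMIs against 9475 and 9362 for the class. Of the 51 control and 49 Dnmt1iECKO members with endothelial and Ptprc UMIs, 43.1% and 51.0% held monocyte or macrophage markers, 29.4% and 14.3% B cell markers, and 15.7% and 36.7% T cell markers. Mast cell or basophil barcodes numbered 3 in each library, with 1 member in all, and no member held melanocytic markers.

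**Figure D3:**
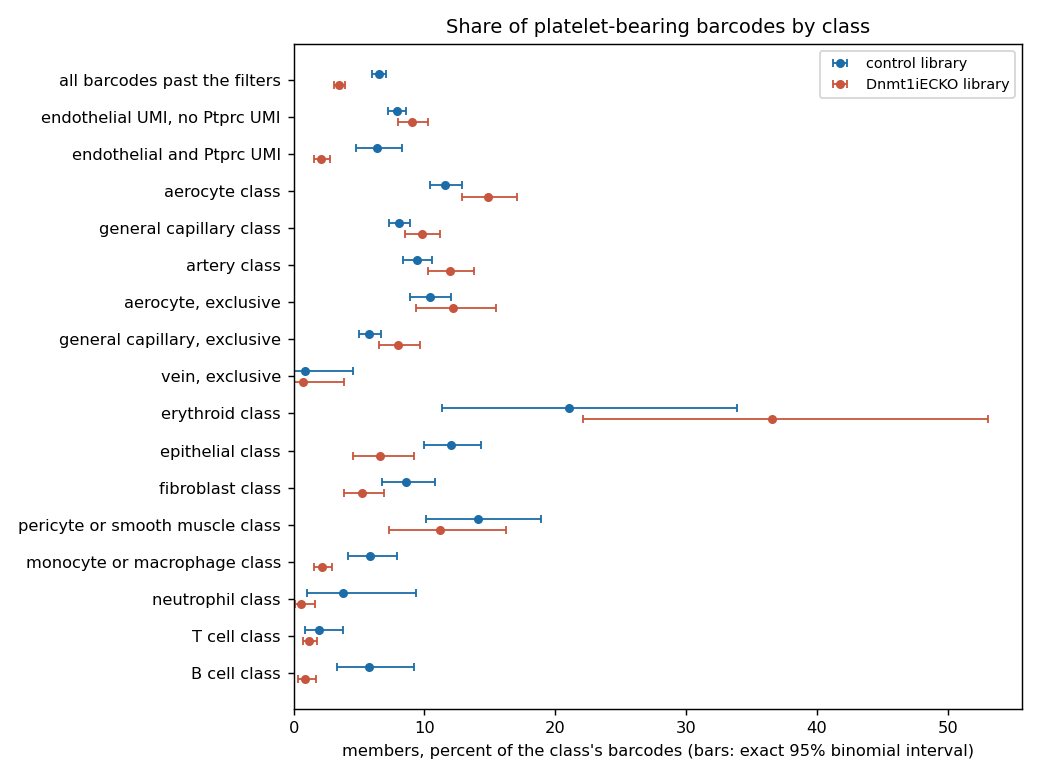
Members as a percent of the barcodes of each class in the control (blue) and Dnmt1iECKO (red) libraries, with exact 95% binomial intervals. Classes may overlap except those named exclusive. The Dnmt1iECKO share was lower over all barcodes (3.51% against 6.50%) and higher in the endothelial barcodes without Ptprc (9.08% against 7.89%), and exclusive venous barcodes were the lowest of the endothelial classes shown in the control library (0.833%).

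The platelet share of an endothelial droplet was then set against platelet-free ECs, comparing members with Cdh5 and no Ptprc (403 and 201) with barcodes with Cdh5, no Ptprc and none of the rule genes (3739 and 1517), with the genes of the platelet lists left out of the totals. In the control library 308 of 12374 genes (2.49%) were at least 2-fold higher and 152 (1.23%) at least 2-fold lower in platelet-bearing barcodes. In the Dnmt1iECKO library 228 of 10974 (2.08%) were higher and 553 (5.04%) lower. Outside the rule genes, 6 of 10 adhesion receptors were at least 2-fold higher in each library. Of the agonist receptors with at least 20 UMIs, 6 of 11 were 2-fold higher in the control and 5 of 8 in the Dnmt1iECKO library. The same held for 9 and 12 of 17 signalling genes, 5 and 6 of 13 cytoskeletal genes, 3 of 13 and 4 of 12 cargo genes, and 2 of 11 megakaryocyte factors in each library. The gene lists thus contributed unequally, with receptors and signalling genes above cargo and transcription factors, which ECs also express.

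Among the adhesion receptors, Gp5 had 0.0471 CPM in platelet-free and 27.4 CPM in platelet-bearing control barcodes (2 and 215 UMIs, log2 9.18, 7.31 to 12.24) and 0.0527 and 28.9 CPM in the Dnmt1iECKO library (1 and 100 UMIs, log2 9.10, 6.59 to 14.42). Gp6, the collagen receptor, had log2 ratios of 7.27 (6.02 to 8.92) and 7.74 (5.84 to 10.81), the latter on 2 platelet-free UMIs. P2ry12 had ratios of 6.83 (6.00 to 7.80) and 9.60 (7.10 to 14.92), the latter on 1 platelet-free UMI. Platelet-free ECs held at most 12 UMIs of any of these 3 receptor genes in a library. Plek had 6.74 CPM in platelet-free and 137 CPM in platelet-bearing control barcodes, and 8.07 and 184 CPM in the Dnmt1iECKO library. F5, coagulation factor V, had log2 ratios of 5.30 and 3.50, and F13a1, the A chain of factor XIII, 6.28 and 5.65. Abundant transcripts of both cell kinds differed less. Cd36 had log2 ratios of -0.21 and 0.24, and Vwf, made by ECs and megakaryocytes alike, had -0.60 and -1.06. The sign for Vwf depended on the endothelial class. Within exclusive aerocytes it had 1.06 (0.85 to 1.27) and 1.25 (0.86 to 1.64), and within exclusive general capillary ECs -0.42 (-0.56 to -0.29) and -0.36 (-0.55 to -0.17). Tmsb4x, the actin-sequestering thymosin β4 and one of the most abundant platelet messages, differed by 0.79 and 1.03. None of the 5 nuclear transcripts was 2-fold higher, and Malat1 had log2 ratios of -0.29 and -0.17.

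Endothelial genes that act on platelets or leukocytes were compared in the same barcodes. Selp, the P-selectin of Weibel-Palade bodies and alpha granules, had 83.6 CPM in platelet-bearing and 73.5 CPM in platelet-free ECs of the control library, a log2 ratio of 0.19 (0.063 to 0.31). In the Dnmt1iECKO library it had 16.5 and 358 CPM, a log2 ratio of -4.44 (-4.85 to -4.07). In platelet-bearing ECs, 5 barcodes held 84.6% of the control UMIs, so the control value rested on few cells. After thinning, Selp was detected in 2.73% of platelet-bearing and 1.73% of platelet-free control ECs, and in 1.49% and 5.45% in the Dnmt1iECKO library. Vcam1, the leukocyte adhesion molecule, had log2 ratios of 0.16 (0.068 to 0.25) and -2.08 (-2.26 to -1.91), with 131 CPM in platelet-free control ECs and 344 in platelet-free Dnmt1iECKO ECs. Sele, the E-selectin, had -0.37 and -2.83. In platelet-bearing ECs, 5 barcodes held 45.8% and 67.4% of the Vcam1 UMIs and 68.4% and 97.4% of the Sele UMIs. All 3 adhesion molecules were more than 2-fold lower in the platelet-bearing ECs of the Dnmt1iECKO library and within 2-fold in the control, a difference between libraries that was not tested.

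Markers of venous ECs moved with them. Of the 5 venous markers left after Vwf and Selp, 4 were at least 2-fold lower in platelet-bearing ECs of the Dnmt1iECKO library and 1 in the control. Slc6a2 had log2 ratios of -1.16 in the control and -2.01 in the Dnmt1iECKO library, Prss23 -0.86 and -1.80, and Lrg1 -0.70 and -1.29. Nr2f2, the venous transcription factor, was the exception at 0.44 and 0.23. Ackr1, the atypical chemokine receptor of venules, had 44 UMIs in 2 platelet-bearing control barcodes and 0 UMIs in platelet-bearing Dnmt1iECKO barcodes, against 120 and 377 UMIs in platelet-free ECs. Aerocyte markers went the other way in the Dnmt1iECKO library, where all 7 were higher with log2 ratios of 0.26 to 0.99 (median 0.41), while 6 of 7 were higher in the control (median 0.074). Over all genes, 5038 of 10974 were higher in the Dnmt1iECKO library and 5630 of 12374 in the control. The part of the mixture of endothelial subtypes in the difference of Selp, Vcam1 and Sele was not tested. Within aerocytes alone Selp had 108 and 44 UMIs in platelet-bearing and platelet-free control barcodes and 2 and 94 in Dnmt1iECKO barcodes, and 98.1% of those 108 UMIs lay in 5 barcodes. The log2 ratios within aerocytes were 3.25 (2.74 to 3.79) and -3.73 (-6.80 to -1.84), the latter on those 2 UMIs. Within general capillary ECs, Selp had 147 UMIs in platelet-bearing and 632 in platelet-free control barcodes (0.72, 0.45 to 0.98) and 41 and 1221 in Dnmt1iECKO barcodes (-2.33, -2.82 to -1.88). Vcam1 had log2 ratios of 0.65 (0.47 to 0.83) and -1.44 (-1.81 to -1.08) there, and Sele 0.43 (0.010 to 0.82) and -1.35 (-1.90 to -0.85). In these platelet-bearing barcodes, 5 held 93.2% and 87.8% of the Selp UMIs and 66.7% and 86.8% of the Vcam1 UMIs. All Sele UMIs lay in 5 control and 4 Dnmt1iECKO barcodes. Sele was detected in 4.17% of both platelet-bearing and platelet-free Dnmt1iECKO barcodes, and after thinning in 0% and 2.51%. After thinning, Selp was detected in 2.08% of platelet-bearing and 1.79% of platelet-free general capillary ECs of the Dnmt1iECKO library.

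Most antithrombotic and fibrinolytic genes differed less. Over the 14 contact genes outside the platelet lists, the median log2 ratio was -0.14 in the control and -0.37 in the Dnmt1iECKO library, against -0.023 and -0.030 over all genes. These 14 genes also include Sele, Vcam1, Icam1, Pdpn and Podxl. Thbd, thrombomodulin, had log2 ratios of -0.22 and 0.13, Tfpi, the tissue factor pathway inhibitor, -0.10 and -0.0079, and Nos3, the endothelial nitric oxide synthase, -0.13 and -0.11. Entpd1, which degrades ADP, had -0.57 and -0.10, and Plat, the tissue plasminogen activator, 0.11 and -1.20. Pdpn, the podoplanin bound by CLEC-2, had 0.58 and -1.58, with 67.3% of its UMIs in platelet-bearing control ECs in 5 barcodes. The size of these differences was mostly under 2-fold, with Plat, Pdpn and Procr (-0.89 and -2.09) as the exceptions in the Dnmt1iECKO library besides Vcam1 and Sele.

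**Figure D4:**
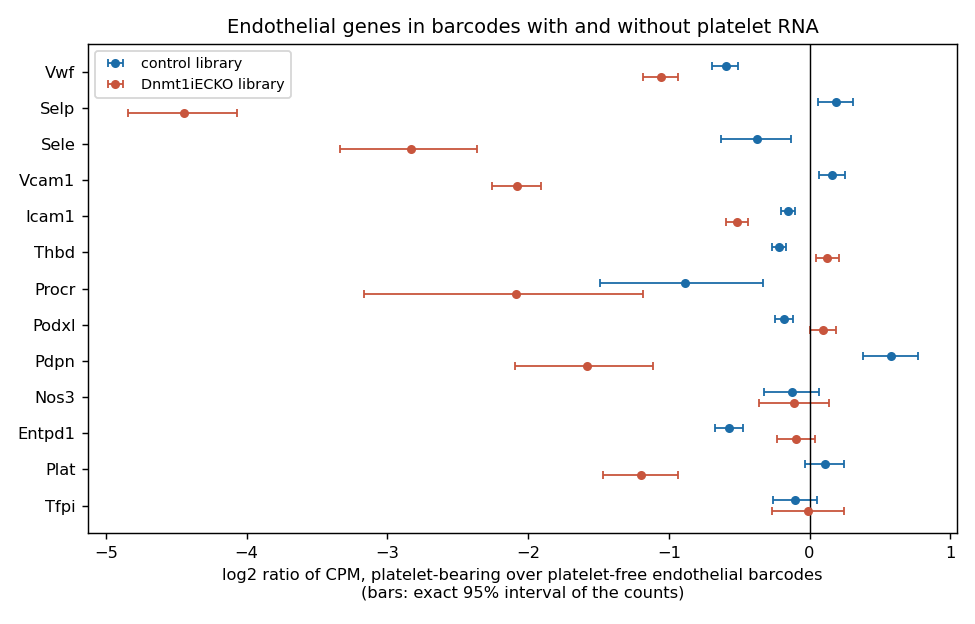
Log2 ratio of CPM in platelet-bearing over platelet-free endothelial barcodes (Cdh5 and no Ptprc UMI) for endothelial genes that act on platelets or leukocytes, in the control (blue) and Dnmt1iECKO (red) libraries, with exact 95% intervals of the counts. Selp, Sele and Vcam1 stood at -4.44, -2.83 and -2.08 in the Dnmt1iECKO library and between -0.37 and 0.19 in the control.

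Type I interferon response genes were higher in platelet-bearing control ECs, at least 2-fold for 4 of 12 (median log2 ratio 0.46) and for none in the Dnmt1iECKO library (median 0.12). Rsad2 led with 2.04 in the control, followed by Ifit2 with 1.78 and Cxcl10, a T cell chemoattractant, with 1.64. A few barcodes carried these sums, since 5 barcodes held 89.0%, 76.5% and 72.0% of the UMIs. After thinning, Rsad2 was detected in 1.24% of platelet-bearing and 1.21% of platelet-free control ECs, Ifit2 in 2.98% and 2.26%, and Cxcl10 in 8.93% and 7.31%. The shares of ECs with these transcripts were thus nearly alike.

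The level of platelet RNA in members was compared between libraries. The 7 rule genes all had higher CPM in Dnmt1iECKO members, with log2 ratios from 0.16 (Nrgn, 429 CPM in the control and 480 in the Dnmt1iECKO library) to 0.56 (Itga2b, 71.7 and 105 CPM), values given as a description. Among the 76 genes of the platelet lists outside the rule with at least 20 UMIs, 59 were higher in Dnmt1iECKO members, with a median log2 ratio of 0.19 against -0.0097 over all 10466 genes with at least 100 UMIs. Of those 10466 genes, 5060 were higher. Over those 10466 genes, 132 (1.26%) were at least 2-fold higher and 203 (1.94%) at least 2-fold lower. The median of the platelet genes was 0.076 without the 5 members of most rule-gene UMIs in each library and 0.049 when each barcode had equal weight, so the richest members carried much of the difference.

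By role, all 18 signalling genes were higher in Dnmt1iECKO members with a median log2 ratio of 0.34, as were 11 of 13 cytoskeletal genes (0.22), 7 of 10 agonist receptors (0.25), 9 of 13 adhesion receptors (0.090), 10 of 14 cargo genes (0.11), 10 of 12 megakaryocyte factors (0.15) and 2 of 4 eicosanoid enzymes (0.037). These counts and medians include the rule genes that stand in the lists (Ppbp, Pf4, Gp9, Clec1b, Itga2b, Nrgn and Alox12), which chose the members. The eicosanoid enzymes besides Alox12 had log2 ratios of -0.053 (Ptgs1), 0.13 (Tbxas1) and -0.30 (Pla2g4a). Of all 10466 genes with at least 100 UMIs, 5060 were higher. Treml1 had 41.2 CPM in control and 59.9 CPM in Dnmt1iECKO members, a log2 ratio of 0.54 (0.33 to 0.75). Tubb1 had 21.9 and 31.9 CPM and a ratio of 0.55 (0.25 to 0.84), and Fermt3, the kindlin of integrin activation, 57.3 and 89.1 CPM and 0.64 (0.46 to 0.81). Other platelet genes barely differed, with Itgb3 at 67.1 and 71.5 CPM (0.090, -0.092 to 0.27), Rgs18 at 46.1 and 48.3 CPM (0.065, -0.16 to 0.28) and Gp1ba at 10.8 and 10.2 CPM (-0.080, -0.57 to 0.39). The largest ratios belonged to genes that leukocytes share. Lat, the adaptor of T cell receptor and collagen receptor signalling, had 1.73 in all members and 1.30 in members with endothelial and no Ptprc UMIs, and F13a1, which macrophages also express, had 1.34 and 0.42. Gata1 had 26 UMIs in control and 28 in Dnmt1iECKO members (1.12, 0.29 to 1.94), 13 of the latter in the single richest member. Selp was lowest at -1.48, and Tbxa2r, the thromboxane receptor, had -0.59 (-0.95 to -0.24).

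**Figure D5:**
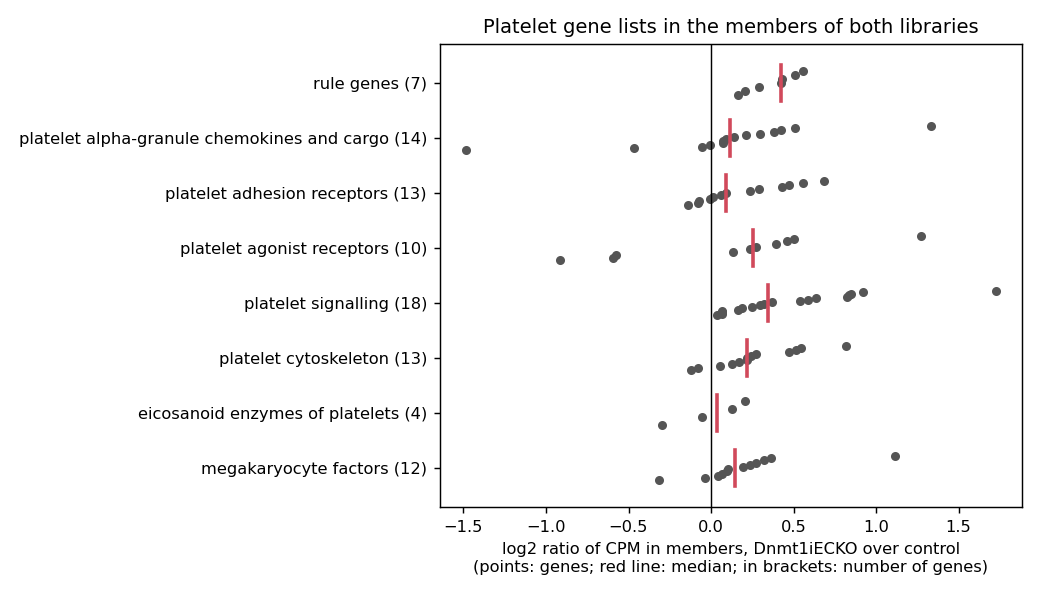
Log2 ratio of CPM in Dnmt1iECKO over control members for each gene with at least 20 UMIs, by list (points: genes, red line: median, number of genes in brackets). The list medians lay between 0.037 (eicosanoid enzymes) and 0.42 (rule genes, which chose the members), and all 18 signalling genes lay above 0. The other lists include the rule genes that stand in them, such as Alox12 among the eicosanoid enzymes and Nrgn among the signalling genes.

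Dnmt1 itself (ENSMUSG00000004099) was lower in Dnmt1iECKO members, at 26.7 CPM (22.5 to 31.5) against 51.7 CPM (47.5 to 56.2) in control members, a log2 ratio of -0.95 (-1.23 to -0.69). In members with Cdh5 and no Ptprc the ratio was -1.21 (-1.57 to -0.87), and in platelet-free ECs it was -0.53 (-0.66 to -0.41), with 34.0 and 49.3 CPM. In members with endothelial and Ptprc UMIs it was -0.46 (-0.93 to 0.0050). Among all barcodes that were not members it was 0.15 (0.096 to 0.20). A 3′ count does not show whether a transcript comes from the deleted allele.

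Of the genes with at least 100 UMIs, 6061 of 10466 had a ratio of the same sign in both of the largest classes of members, and the 10 highest and 10 lowest of these were named. Gdpd3, a lysophospholipase D, was highest with 65 UMIs (5.99 CPM) in control and 1094 UMIs (203 CPM) in Dnmt1iECKO members, a log2 ratio of 5.08 (4.72 to 5.47). It was found in 55 control and 216 Dnmt1iECKO members, and its ratio in platelet-free ECs was 4.42 (4.23 to 4.61), so the difference was not particular to members. Globin genes were among the highest too, with Hbb-bt at 4.67, Hbb-bs at 3.91 and Hba-a2 at 3.56, against 1.09, 1.22 and 1.47 in platelet-free ECs. A single barcode held 72.3% of the control and 30.1% of the Dnmt1iECKO Hbb-bs UMIs. The T cell genes Lck (3.61), Trbc1 (3.57), Trac (3.23), Txk (3.10) and Cd3d (3.02) and the neutrophil gene Retnlg (3.22) completed the list. Of the 121 Cd3d UMIs in Dnmt1iECKO members, 116 lay in the members with endothelial and Ptprc UMIs.

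The lowest ratios were those of Ccl21a (-7.20), Iglv1 (-6.14), Lyz1 (-5.92), Grem1 (-5.47), Ccl2 (-5.34), Hmga2 (-5.19), Mmp3 (-4.71), Crabp1 (-4.35), Prune2 (-4.26) and Twist1 (-4.02). Ccl21a, the lymphatic chemokine, had 295 UMIs in control members, 97.3% of them in 1 barcode, and 1 UMI in Dnmt1iECKO members, which gives an interval of -12.50 to -4.71. Iglv1, an immunoglobulin light chain gene, had 97.2% of its 142 control UMIs in 1 barcode and 1 UMI in Dnmt1iECKO members (-11.46 to -3.64). Grem1 (-7.76 to -3.91) and Mmp3 (-7.00 to -3.14) had 3 UMIs each there. Ccl2, the monocyte chemoattractant, had 3496 UMIs in 38 control members, 58.8% of them in 1 barcode. A single droplet thus carried most of the control UMIs of Ccl21a, Iglv1, Ccl2, Lyz1 (52.8%) and Mmp3 (53.2%). In platelet-free ECs 8 of these 10 genes had the opposite sign (all but Ccl21a and Lyz1), with log2 ratios from 0.12 (Ccl2) to 2.86 (Mmp3).

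In members with endothelial and no Ptprc UMIs, 43 of 9450 genes (0.455%) were at least 2-fold higher and 184 (1.95%) at least 2-fold lower in the Dnmt1iECKO library. In these members 59 of 74 platelet genes outside the rule were higher, with a median log2 ratio of 0.21, against 4368 of the 9450 genes. Plek had 166 and 246 CPM (0.57, 0.44 to 0.69) and Trpc6, a calcium channel, 32.2 and 77.7 CPM (1.27, 1.03 to 1.52), while Thbs1, the thrombospondin of alpha granules that ECs also make, had 211 and 221 CPM (0.069, -0.054 to 0.19). The rise was smaller in the other classes. With endothelial and Ptprc UMIs, 40 of 64 platelet genes were higher (median 0.085), against 3183 of 6462 genes. With none of Cdh5, Pecam1 and Ptprc, 18 of 33 were higher (median 0.12), against 211 of 473 genes.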

How the data were processed

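Per the labels, live CD31+CD45- cells were sorted from pooled tumours, libraries were made with the 10x Genomics 3′ GEM-X kit, and the authors counted UMIs with Cell Ranger on mm10. The deposited count matrices, 1 per library, hold whole UMI counts per gene and barcode and were used as deposited. Gene positions are those of the GRCm38 annotation used for reference.

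Barcodes with at least 500 detected genes and at most 10% mitochondrial UMIs were kept. Members had at least 4 of the 7 rule genes. Members, host classes and gene lists were chosen with earlier results of these data known, and the split by Cdh5 alone, the exclusive endothelial classes and the equal weighting of barcodes were added after the values were seen. UMIs were summed per library and class and expressed as CPM, with exact 95% intervals and without a pseudocount. A gene counted as past the fold at a log2 ratio of at least 1, with at least 100 UMIs in the groups compared (20 for genes of the lists). Named genes were the rule genes, the genes of the lists, the 10 highest and 10 lowest log2 ratios with the same sign in both of the largest classes, and the 15 leading genes of members without endothelial and Ptprc UMIs. To compare depths, barcodes were thinned to 1000 UMIs and shallower ones left out. Doublets were kept, and Scrublet scores (scanpy 1.11.5) marked the highest-scoring barcodes of each library, at a rate of 0.4% per 1000 barcodes, for an alternative without them. The intervals were tried on simulated Poisson and binomial counts. Those counts lack the clumping of UMIs in single barcodes seen in the data, so the simulation does not cover it. Analyses used Python 3.11.15, numpy 2.4.6, scipy 1.17.1 and pandas 2.3.3. Values of some genes of the lists are not reported here. Other filters, rules and scalings were tried as alternatives. No library was left out, since each condition had 1.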

Additional observations from a re-analysis of the deposited data

Results flagged for a closer look

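The following results went in opposite directions in a pair of classes or in the 2 libraries. None of these differences was tested, since each condition was 1 library.

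The log2 ratio of the member share, Dnmt1iECKO over control, was 0.20 in barcodes with endothelial and no Ptprc UMIs and -1.58 in barcodes with endothelial and Ptprc UMIs. It was 0.36 in the aerocyte class and -0.55 in the vein class, -1.43 in the monocyte or macrophage class, -0.86 in the epithelial class, -0.72 in the fibroblast class and -0.33 in the pericyte or smooth muscle class. The intervals of the vein (-1.29 to 0.16) and pericyte or smooth muscle classes (-1.14 to 0.45) include 0. So does that of barcodes with endothelial and no Ptprc UMIs (-0.037 to 0.44).

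In platelet-bearing over platelet-free ECs, the log2 ratio in the control and then the Dnmt1iECKO library was 0.19 and -4.44 for Selp, 0.16 and -2.08 for Vcam1, and 0.58 and -1.58 for Pdpn. It was -0.22 and 0.13 for Thbd and -0.18 and 0.093 for Podxl. Among interferon response genes it was 1.64 and -0.44 for Cxcl10, 0.43 and -0.23 for Ifit1, and -0.18 and 0.19 for Oasl2. For Cxcl10, 5 barcodes held 72.0% of the control and 52.2% of the Dnmt1iECKO UMIs of platelet-bearing ECs.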

How the results depend on the processing

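Of 72 alternative values over 14 results, 58 lay within the counting interval of the reported value or, for counts of genes, within 1.5 times of it, 13 lay outside and 1 reversed. Values inside the interval still varied, as in the epithelial class, where the log2 ratio of the member share (-0.86) ranged from -1.47 with at least 5 rule genes to -0.44 in barcodes without a Ptprc UMI (-1.17 to 0.23), and in the monocyte or macrophage class, where it was -1.92 with at least 4 host markers. The lower member share in the Dnmt1iECKO library (log2 -0.89) turned to 0.26 among barcodes with Cdh5 and no Ptprc and was -0.045 among all barcodes without Ptprc, both added after seeing the data. The log2 ratio of the share of members with Ptprc went from 0.79 to 1.65 after thinning, and that of the monocyte or macrophage class from -1.43 to -0.55 without Ptprc. The median log2 ratio of platelet genes outside the rule (0.19) was 0.049 with equal weight per barcode, 0.32 in members with at least 5 rule genes and 0.076 without the 5 richest members of each library. The number of genes at least 2-fold higher (132) became 237 and 75 with minimums of 50 and 200 UMIs, 63 without Ptprc and 43 in endothelial members without Ptprc, and the number lower (203) became 336 and 124 with those minimums. The median of the contact genes in the control (-0.14) was 0.35 in aerocytes only. No paired analysis was possible because each condition was 1 library, and the replicate number 1 only names it. For the same reason no replicate could be left out. Few barcodes stand behind the rare classes, with 1 member each among the exclusive venous barcodes and 5 members with Ptprc and no endothelial UMI in both libraries together.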

Other observations

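Markers of other endothelial kinds and states were also compared in platelet-bearing and platelet-free ECs. Of all genes, 5630 of 12374 were higher in platelet-bearing ECs of the control and 5038 of 10974 in those of the Dnmt1iECKO library. All 7 cycling genes were higher in platelet-bearing ECs of the control (median log2 ratio 0.71), and 2 of 7 were in the Dnmt1iECKO library (-0.47). General capillary markers were higher for 0 of 7 genes in the control (-0.32) and 5 of 7 in the Dnmt1iECKO library (0.13), and arterial markers for 1 of 7 (-0.34) and 4 of 7 (0.26). Pan-endothelial genes were higher for 3 of 13 genes (-0.076) and 10 of 13 (0.31). These differences between libraries were not tested.

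Between the members of both libraries, the type I interferon response genes were lower in Dnmt1iECKO members for 9 of 12 genes, with a median log2 ratio of -0.51 and 4 genes at least 2-fold lower, against 1.94% of all 10466 genes. Of those 10466 genes, 5060 were higher in Dnmt1iECKO members. In platelet-bearing control ECs, 5 barcodes held 89.0%, 76.5% and 72.0% of the UMIs of Rsad2, Ifit2 and Cxcl10. The erythroid markers with at least 20 UMIs were all at least 2-fold higher in Dnmt1iECKO members, 5 of 5 with a median of 3.91, against 1.26% of all genes. A single barcode held 72.3% of the control and 30.1% of the Dnmt1iECKO UMIs of Hbb-bs, which was found in 49 of 521 and 26 of 284 members. The median share of hemoglobin UMIs over barcodes was 0.0045% in control and 0% in Dnmt1iECKO members.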
